A study of Mus musculus with 33 samples.

Results

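Inhibitory interneuron markers were followed through the CA1 region of the hippocampus of aged and young mice treated with the BET bromodomain inhibitor JQ1 or with vehicle. The markers are 10 genes chosen by name, Gad1, Gad2, Slc32a1, Pvalb, Calb2, Sst, Npy, Vip, Cck and Lhx6. All 10 were found once among the 38355 genes of the count tables and once among the 40678 loci of the FPKM tables. Each was expressed in each of the 32 samples, with between 194 and 9425 reads per aged sample, and all 10 passed the filters on low values in both experiments.

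Inhibitory interneurons are the local neurons of the hippocampus that release GABA onto pyramidal cells and onto each other. GABA is made from glutamate by glutamate decarboxylases and loaded into synaptic vesicles by a dedicated transporter, so that these genes mark nearly all interneurons. Subclasses differ in the calcium-binding proteins and neuropeptides that they make. Parvalbumin marks fast-spiking cells around the somata of pyramidal cells, and somatostatin marks cells whose axons reach the distal dendrites of CA1, often together with neuropeptide Y. Vasoactive intestinal peptide and calretinin mark many cells that contact other interneurons, and cholecystokinin marks another basket cell type.

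The samples were microdissected CA1 tissue. APP mice carried the transgenes of the APP/PS1-21 line, which include a mutant human APP and are driven by the neuronal Thy1 promoter, in a C57B/6 background. These mice were 8 to 10 months old and received 50 mg per kg JQ1 (6 samples) or 10% DMSO vehicle (6 samples) intraperitoneally for 10 days. Aged WT mice of the same age had 10 days of vehicle (4 of 5 labelled samples analysed here, replicate 2 was not), and there were no JQ1-treated aged WT samples. Their titles name them WT, whereas their strain label names the transgenic line. Young WT mice were 3-month-old C57B/6JRj, with 13 days of JQ1 at the same dose (8 samples) or of vehicle (8 samples), and the methods describe males, whereas APP females were used for behavior. Age, sex, the length of treatment and the unit of measurement therefore differ together between the experiments and cannot be told apart. Nothing in the labels states that samples were from separate animals, so p-values describe the spread between these samples.

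Aged samples held between 14605459 and 25339482 reads on genes, so that 3 reads correspond to between 0.118 and 0.205 CPM (reads scaled to the library size). The depth of the young samples, deposited as FPKM (fragments scaled to transcript length and to sequencing depth), is unknown. CA1 pyramidal markers were high in all aged samples, 10 of these genes summing to between 6375 and 10100 CPM. The library labelled APP JQ1 replicate 4 stood apart from its label. It had 820 CPM of Thy1, against 1618 to 2342 in the other 11 APP samples and 841 to 1070 in aged WT. Its 11 microglia markers summed to 387 CPM, against 795 to 1498 in the other APP samples and 352 to 390 in aged WT, and the plaque-associated microglial gene Cst7 had no read in it. Its Gfap, an astrocyte gene raised in APP mice, was 322 CPM (1262 to 5166 in the other APP samples, 249 to 321 in aged WT). Aged WT replicate 1 had 471 CPM over 9 CA3 and CA2 markers, against 238 to 344 in the other 15 samples, and aged WT replicate 4 had 3065 CPM of Ttr, a choroid plexus gene, against 3.40 to 115 elsewhere. APP vehicle replicate 1 carried the highest level among the aged samples of the activity-regulated genes Fos, Bdnf and Nptx2, with 61.3, 76.8 and 127 CPM respectively. All samples were kept, and several of the marker differences that these libraries moved are also given without them.

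**Figure D1:**
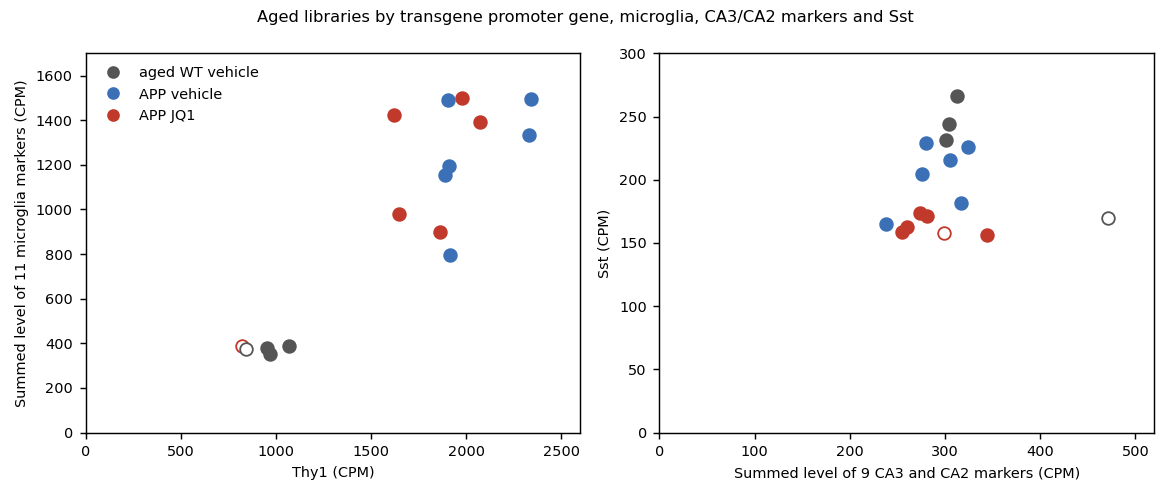
Left, CPM of Thy1 against the summed CPM of 11 microglia markers, and right, summed CPM of 9 CA3 and CA2 markers against CPM of Sst, with 1 point for each of the 16 aged samples. The library labelled APP JQ1 replicate 4 (820 CPM of Thy1) lies among the aged WT samples on the left, and aged WT replicate 1, with 471 CPM of CA3 and CA2 markers, lies apart from the other aged WT samples on the right.

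Between genes, levels were compared only per kilobase of exon. For the aged samples this was the length of all annotated exons of a gene together, such as 7639 bases for Gad1 and 566 for Npy. It can exceed the length of the transcripts present, so the order of genes depends on it. The FPKM of young samples were scaled to transcript length, so orders are not directly comparable between the experiments. In the aged samples the mean level of Sst was the highest of the 10 in each group, between 227 and 316 CPM per kb, and that of Lhx6 the lowest, between 4.60 and 5.04 CPM per kb. In all 3 groups the order from the top was Sst, Cck, Npy, Pvalb, Gad1, Gad2 and Slc32a1. Calb2 and Vip came next, Calb2 ahead in both APP groups and Vip ahead in aged WT. The SD ranges of Pvalb and Gad1 overlapped in every aged group, and those of Cck and Npy in both APP groups. In the young samples Sst (301 and 271 FPKM with JQ1 and with vehicle) and Cck (241 and 230 FPKM) were again the highest, with overlapping SD ranges, and Lhx6 (6.51 and 6.68 FPKM) the lowest. Gad1 came next there, but its young locus was joined with the neighbouring Erich2, Erich2os and Gad1os, so that its FPKM are not of Gad1 alone.

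**Figure D2:**
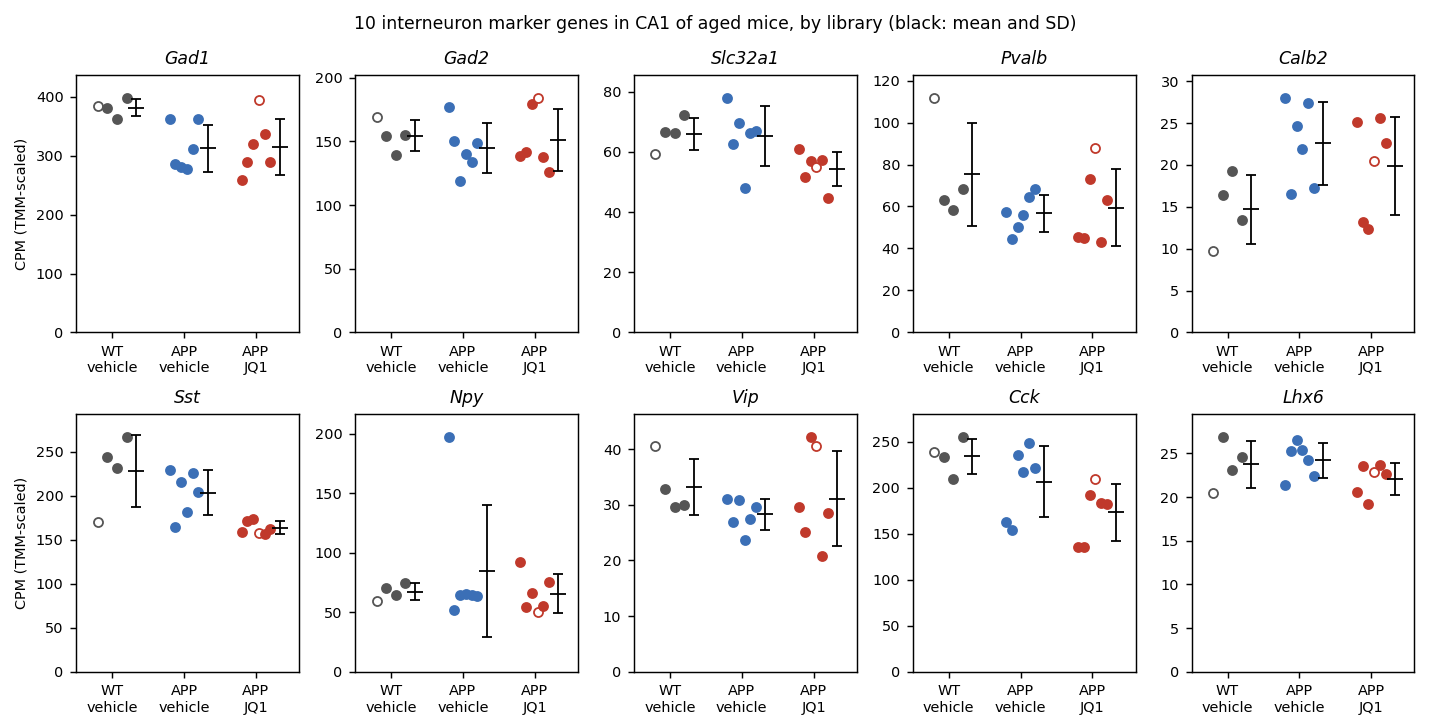
CPM of the 10 markers in the 16 aged samples, with 1 point per sample, black bars for the mean and SD of each group, and open circles for the library labelled APP JQ1 replicate 4 and aged WT replicate 1. Sst lies between 156 and 174 CPM in the 6 JQ1-treated APP samples, and Gad1 is higher in all 4 aged WT samples than in all 6 vehicle-treated APP samples.

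**Figure D3:**
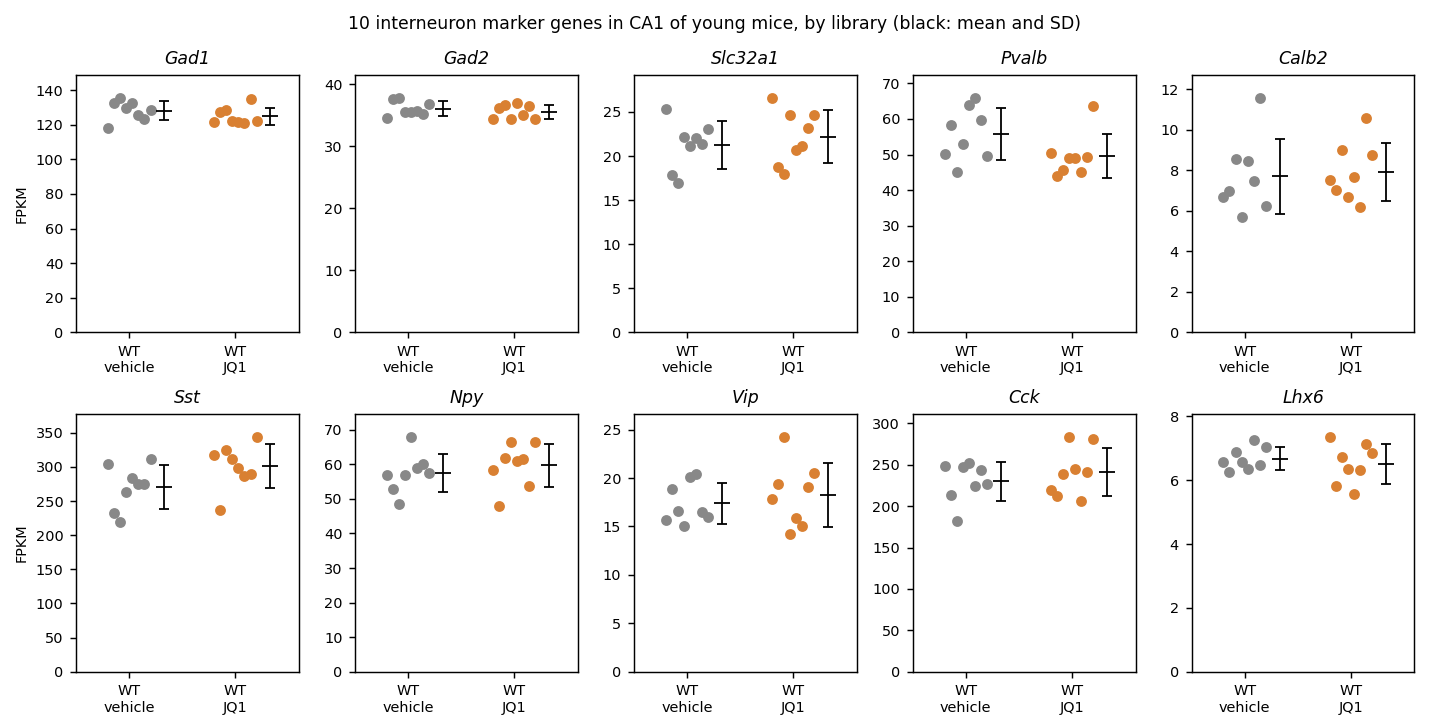
FPKM of the 10 markers in the 16 young WT samples, with 1 point per sample and black bars for the mean and SD of each group of 8. The groups overlap for each marker, and Pvalb of JQ1 replicate 8 (63.8 FPKM) lies above the other 7 JQ1-treated samples.

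Across the 10 markers, 1 call was made in the 3 comparisons among aged samples and none in young mice, at an adjusted p under 0.05. The test was edgeR's quasi-likelihood test for counts and limma for FPKM, both with Benjamini-Hochberg adjustment over all genes tested, and differences are log2 ratios of group means. Between JQ1 and vehicle in APP mice 0 of 10 markers passed, against 1.08% of all genes. At an unadjusted p under 0.05 were 2 markers (Sst and Slc32a1), against 17.6% of all genes. DESeq2 also called 0 of 10. Between vehicle-treated APP and aged WT mice 0 of 10 passed by edgeR and by DESeq2, against 2.57% of all genes by edgeR. Here 2 markers (Gad1 and Calb2) had an unadjusted p under 0.05, against 14.4% of all genes. Between JQ1-treated APP and vehicle-treated aged WT mice Sst fell, 1 of 10, against 2.06% of all genes. Here 4 markers (Sst, Cck, Gad1 and Slc32a1) had an unadjusted p under 0.05, against 14.1% of all genes. In young mice 0 of 10 passed, and 0 had an unadjusted p under 0.05. Of all young loci 0.00543% passed and 4.65% had an unadjusted p under 0.05.

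Without regard to the threshold, 6, 7 and 9 of the 10 markers had lower means in the first group of these aged comparisons, taken in the same order, and 4 of 10 had lower means with JQ1 in young mice. The median differences of the markers were -0.16, -0.13, -0.19 and 0.05, whereas the medians over all genes tested lay between -0.001 and 0.009. Without the library labelled APP JQ1 replicate 4 the aged counts were 8, 7 and 8. With libraries scaled to 12 pan-neuronal genes in place of all genes, which moved the median of all genes by -0.03, 0.19 and 0.15, they were 7, 4 and 5. In bulk tissue, fewer cells of a class and less RNA per cell cannot be told apart.

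**Figure D4:**
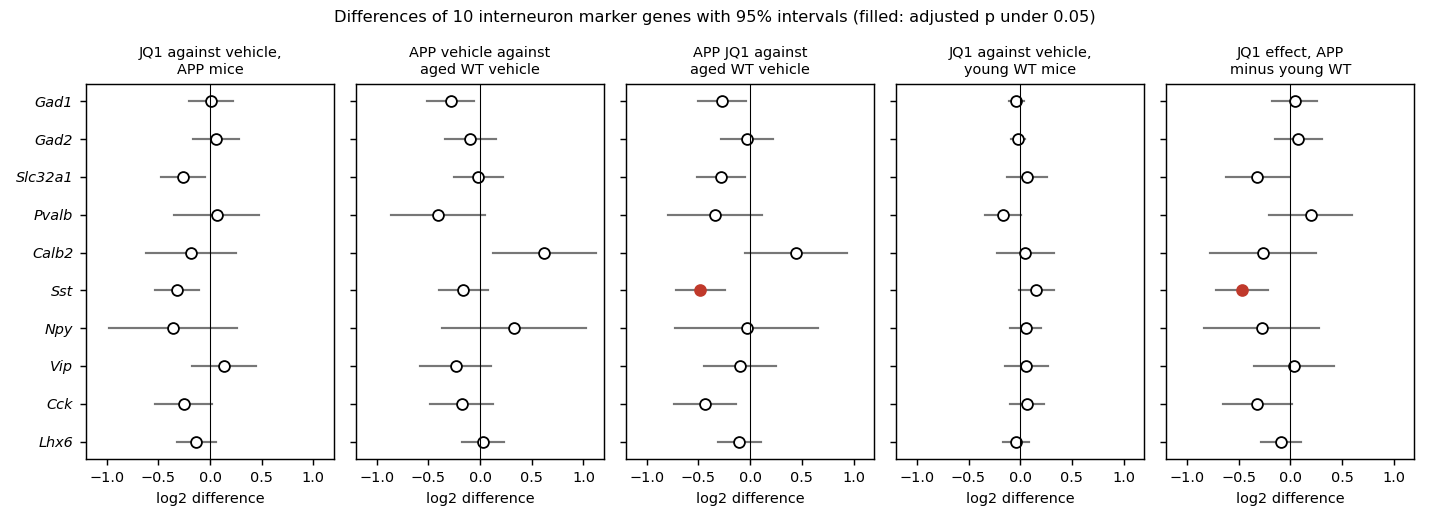
Log2 difference of each marker in the 4 comparisons between groups and in the difference between the JQ1 effects of APP and young mice, with points for the estimate, bars for its 95% interval, and filled points for an adjusted p under 0.05. Filled points are found for Sst alone, at -0.48 for JQ1-treated APP against aged WT and at -0.46 for the difference between the JQ1 effects.

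Gad1 encodes GAD67, the glutamate decarboxylase that makes most of the GABA of interneurons. It lies at chr2:70553072-70602014 (plus strand, mm10), and its antisense neighbour Gad1os overlaps it, so that without stated strand counting their reads cannot be separated. In aged WT it had 384, 382, 362.2 and 398 CPM. In vehicle-treated APP samples it ranged from 277 to 362.0 CPM (median 298), and in JQ1-treated APP samples from 259 to 395 CPM (median 305). All 6 vehicle-treated APP samples were below all 4 aged WT samples, the narrowest gap being between 362.0 and 362.2 CPM. Gad1 was the sole marker whose groups did not overlap in any comparison. The same separation downward was seen in 2.05% of all genes, and 2.57% of all genes passed the test. The difference was -0.29 (SE 0.11, 95% interval -0.52 to -0.05, adjusted p = 0.226 by edgeR, exact permutation p = 0.00952 where 0.00476 is the smallest possible). JQ1-treated APP samples had a mean lower than aged WT by about as much, -0.28 (SE 0.11, adjusted p = 0.247 by edgeR). Leaving out the library labelled APP JQ1 replicate 4, which had the highest Gad1 of the 12 APP samples, made this -0.36 (adjusted p = 0.0572 by edgeR). Scaled to pan-neuronal genes, the differences of the vehicle-treated and JQ1-treated APP samples to aged WT were -0.11 and -0.13. JQ1 and vehicle differed by 0.01 (95% interval -0.20 to 0.22) in APP mice and by -0.04 (95% interval -0.11 to 0.04) in young mice. Scaling to pan-neuronal genes, the GC correction or the loss of that library turned the small difference in APP mice negative.

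Gad2 encodes GAD65, the decarboxylase concentrated at axon terminals. Its 4 aged WT samples had 169, 154, 139.6 and 155 CPM, within the ranges of vehicle-treated APP (119 to 177, median 145) and JQ1-treated APP samples (126 to 184, median 140.2). The aged groups overlapped, and differences among them lay between -0.09 and 0.06, with adjusted p of at least 0.774 by edgeR. With 1 sample left out at a time they ran from -0.16 to 0.13. In young mice Gad2 was the least variable of the markers, with a CV of 3.12% with JQ1 and 3.15% with vehicle, and the 2 means of 35.6 and 36.1 FPKM differed by -0.02 (95% interval -0.09 to 0.05).

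Slc32a1 encodes VGAT, which loads GABA into vesicles, and the antisense gene Gm14205 overlaps it. It had 59.3, 66.5, 66.2 and 72.2 CPM in aged WT, 48.1 to 77.9 (median 66.6) in vehicle-treated APP and 44.5 to 61.0 (median 56.0) in JQ1-treated APP samples. All 6 JQ1-treated samples were below the medians of both vehicle-treated groups, although the ranges overlapped. The difference to vehicle in APP mice was -0.26 (SE 0.10, 95% interval -0.47 to -0.05, adjusted p = 0.184 by edgeR, exact permutation p = 0.0498), and that to aged WT -0.28 (SE 0.11, adjusted p = 0.247 by edgeR, exact permutation p = 0.019). Slc32a1 is rich in GC, with 61.9% of its exonic bases, and when GC and length were corrected for, the first of these was 0.06. In young mice the means were 22.2 FPKM with JQ1 and 21.2 with vehicle, a difference of 0.06 (95% interval -0.13 to 0.26).

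Pvalb encodes parvalbumin, a calcium buffer of fast-spiking basket and axo-axonic cells. Aged WT samples had 111.7, 63.1, 58.1 and 68.5 CPM, vehicle-treated APP samples 57.2, 44.4, 50.2, 55.8, 64.4 and 68.3 CPM, and JQ1-treated APP samples 45.5, 44.8, 73.1, 87.7, 42.8 and 63.2 CPM. The highest value was of aged WT replicate 1, the sample with the most CA3 and CA2 markers, and the next highest of the library labelled APP JQ1 replicate 4. The groups overlapped, and vehicle-treated APP differed from aged WT by -0.41 (SE 0.21, 95% interval -0.86 to 0.04, adjusted p = 0.401 by edgeR), which was -0.17 without aged WT replicate 1. JQ1 and vehicle differed by 0.07 (95% interval -0.34 to 0.48) in APP mice, or -0.07 without the library labelled APP JQ1 replicate 4. Young mice had 43.9 to 63.8 FPKM with JQ1 (median 49.1) and 45.2 to 65.9 with vehicle (median 55.6). There 7 of 8 JQ1-treated samples lay below the vehicle median, and the difference was -0.17 (SE 0.08, 95% interval -0.34 to 0.01, adjusted p = 0.981 by limma, exact permutation p = 0.0853).

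Calb2 encodes calretinin, the calcium-binding protein of interneurons that mostly contact other interneurons, and it was the only marker with a higher mean in both APP groups than in aged WT. It had 9.66, 16.4, 19.2 and 13.4 CPM in aged WT, 16.5 to 27.995 (median 23.3) in vehicle-treated APP and 12.4 to 25.6 (median 21.5) in JQ1-treated APP samples. All 6 vehicle-treated APP samples exceeded the aged WT median, and 3 of 4 aged WT samples were below all of them. This difference was 0.62 (SE 0.23, 95% interval 0.13 to 1.12, adjusted p = 0.215 by edgeR, exact permutation p = 0.0286), the largest in size among the markers in that comparison, and 0.46 without aged WT replicate 1. With JQ1 it was 0.44 (SE 0.23, adjusted p = 0.431 by edgeR), and 0.28 without aged WT replicate 1. JQ1 and vehicle differed by -0.18 (95% interval -0.62 to 0.25) in APP mice, or -0.11 without vehicle replicate 1, and by 0.05 (95% interval -0.23 to 0.33) in young mice.

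The 4 peptide genes are shown with the sequence before their transcription start, because Sst, the marker that passed the test, is a classic target of the cyclic AMP response element (CRE), TGACGTCA. The windows of 250 bases before each start were searched on both strands in RefSeq promoters of GRCm38.p6, where 9 of 10 markers had an entry (not Calb2). The full CRE was found in 1.56% of 32536 promoters. Among the markers it was found in Sst alone, where its first base is at position -48. The 30 bases around it (chr16:23890874-23890903, minus strand) are printed with the CRE in capitals. They lie before the RefSeq start but inside the GENCODE gene model of Sst, which reaches to 23890958.

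Sst: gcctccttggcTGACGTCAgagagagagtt

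The 150 bases before the starts of the other 3 peptide genes are printed with TATAAA in capitals. These letters, searched on the given strand, were present in 7.55% of promoters and among these 3 genes in Vip alone (chr10:5639068-5639217, plus strand). The Npy stretch is chr6:49822560-49822709 (plus strand) and the Cck stretch chr9:121495695-121495844 (minus strand).

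Vip: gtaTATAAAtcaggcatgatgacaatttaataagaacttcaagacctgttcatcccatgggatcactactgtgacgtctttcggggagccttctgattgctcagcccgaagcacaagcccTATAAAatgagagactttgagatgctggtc

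Npy: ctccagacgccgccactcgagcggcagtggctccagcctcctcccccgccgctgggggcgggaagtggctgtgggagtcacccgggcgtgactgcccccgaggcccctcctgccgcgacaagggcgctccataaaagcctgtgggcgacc

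Cck: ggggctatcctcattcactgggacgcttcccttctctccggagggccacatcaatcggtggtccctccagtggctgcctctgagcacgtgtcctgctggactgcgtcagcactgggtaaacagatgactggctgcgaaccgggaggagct

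The shorter CRE core TGACG, which overlaps the full element and was found in 17.9% of promoters, was present in the windows of Vip, Cck and Gad2 as well as Sst. No binding or chromatin data were analysed here, and these matches are descriptions of sequence.

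Sst encodes somatostatin, which damps transmission onto the distal dendrites of pyramidal cells. It lies at chr16:23889573-23890958 (minus strand, mm10). In JQ1-treated APP samples it had 158.6, 171.1, 173.9, 158.1, 156.0 and 162.4 CPM, a CV of 4.54%. Vehicle-treated APP samples had 229.1, 164.7, 215.7, 181.8, 225.9 and 204.3 CPM. Aged WT samples had 169.8, 244.3, 231.4 and 266.4 CPM. The JQ1-treated samples were thus narrowly grouped at the low end, where 1 vehicle-treated APP sample and 1 aged WT sample, replicate 1, overlapped with them. The means were 163 CPM with JQ1, 204 with vehicle in APP mice and 228 in aged WT.

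Against aged WT, Sst fell in JQ1-treated APP mice by 0.48 on the log2 scale (SE 0.11, 95% interval -0.72 to -0.25, adjusted p = 0.0291 by edgeR, exact permutation p = 0.0143), or 28.4%. All 6 JQ1-treated samples were below the aged WT median. The fall was 0.48 without the library labelled APP JQ1 replicate 4 (adjusted p = 0.0272 by edgeR). It was 0.64 without that library and aged WT replicates 1 and 4 (adjusted p = 0.0114 by edgeR), a choice made after the data were seen. That setting kept only aged WT replicates 3 and 5, and removed replicate 1, which had the lowest Sst of its group (169.8 CPM). With 1 sample left out at a time, the call was lost for 7 samples (APP JQ1 replicates 1, 2, 5 and 6, aged WT replicates 3, 4 and 5), where the adjusted p by edgeR was at most 0.151. Scaled to pan-neuronal genes, the difference was -0.35 (adjusted p = 0.174 by edgeR). The sum of these genes ranged from 7375 to 9196 CPM in JQ1-treated APP and from 8554 to 10760 CPM in aged WT samples. The 10760 CPM were of aged WT replicate 1 alone, the other aged WT samples having at most 8941 CPM.

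Between JQ1 and vehicle in APP mice, the Sst difference was -0.32 (SE 0.10, 95% interval -0.53 to -0.11), or -19.8%. All 6 JQ1-treated samples lay below the vehicle median. It did not pass over all genes (adjusted p = 0.119 by edgeR), with 0.0579 by DESeq2, while the exact permutation p was 0.00649 and 0.00216 is the smallest possible for 6 against 6. The value was -0.30 without the library labelled APP JQ1 replicate 4 (adjusted p = 0.224 by edgeR). It was -0.31 without aged WT replicate 1, where it passed (adjusted p = 0.0469 by edgeR). With a correction for GC content and length it was -0.17 (adjusted p = 0.66 by edgeR). Vehicle-treated APP and aged WT mice differed in Sst by -0.16 (SE 0.11, 95% interval -0.40 to 0.07, adjusted p = 0.541 by edgeR). This was -0.29 without aged WT replicate 1, -0.08 without aged WT replicate 5, and -0.004 when scaled to pan-neuronal genes.

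In young mice the Sst means were ordered the other way. JQ1-treated samples had 236 to 344 FPKM (median 306) and vehicle-treated samples 219.5 to 312 FPKM (median 275), with 7 of 8 JQ1-treated samples above the vehicle median. The difference was 0.15 (SE 0.08, 95% interval -0.01 to 0.32, adjusted p = 0.981 by limma, exact permutation p = 0.0917). Whether the JQ1 effect differed between APP and young mice was tested as the difference of the 2 effects in limma, over 11843 genes tested in both experiments. For Sst it was -0.46 (SE 0.12, 95% interval -0.71 to -0.21, adjusted p = 0.0454 by limma). Permuting the treatment labels within each experiment gave an exact permutation p of 0.00122. That permutation assumes no JQ1 effect in either experiment, so it does not test whether the 2 effects differ. Sst was 1 of 10 markers called, against 1.99% of all genes. The call was lost when each experiment had its own variance (adjusted p = 0.0596 by limma), without the library labelled APP JQ1 replicate 4 (adjusted p = 0.0772 by limma), and without any one of 21 other samples. Of the other markers, Slc32a1 (-0.32, SE 0.15, adjusted p = 0.265 by limma) and Cck (-0.32, SE 0.16, adjusted p = 0.316 by limma) had the largest differences between the effects. Across the markers the median was -0.18, against 0.008 over all genes. The GC and length correction was not run for the difference between the effects. In APP mice alone it moved the Sst difference between JQ1 and vehicle from -0.32 to -0.17.

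Npy encodes neuropeptide Y, made by several interneuron classes and, after strong activity, by other hippocampal neurons. It had 59.0, 70.5, 64.4 and 74.8 CPM in aged WT, 51.7 to 196.9 (median 64.7) in vehicle-treated APP and 50.5 to 92.5 (median 60.7) in JQ1-treated APP samples. The top value belonged to vehicle replicate 1, the next highest of that group having 65.0 CPM, and this sample also held the most Fos, Bdnf and Nptx2. JQ1 and vehicle differed by -0.36 in APP mice (SE 0.29, 95% interval -0.98 to 0.26, adjusted p = 0.553 by edgeR), or 0.09 without that sample. Vehicle-treated APP and aged WT mice differed by 0.33 (SE 0.33), or -0.12 without that sample, and the part of this activity pattern in either value was not tested. The young groups, 47.9 to 66.6 and 48.5 to 67.9 FPKM with JQ1 and vehicle, differed by 0.05 (95% interval -0.10 to 0.20).

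Vip encodes vasoactive intestinal peptide, of cells that inhibit other interneurons. Aged WT samples had 40.5, 32.8, 29.7 and 29.99 CPM, vehicle-treated APP samples 23.6 to 31.1 (median 28.5) and JQ1-treated APP samples 20.7 to 42.1 (median 29.0), a wider spread in the JQ1 group (CV 27.4% against 10.1%). All 6 vehicle-treated APP samples were below the aged WT median, with a difference of -0.23 (SE 0.16, adjusted p = 0.549 by edgeR, exact permutation p = 0.0619). Without aged WT replicate 1 it was -0.13. JQ1 and vehicle differed by 0.14 (95% interval -0.17 to 0.45) in APP mice, 0.05 without the library labelled APP JQ1 replicate 4, and -0.18 with the GC and length correction, Vip being the poorest in GC of the markers with 40.0% of exonic bases. In young mice they differed by 0.06 (95% interval -0.15 to 0.27).

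Cck encodes cholecystokinin, the peptide of another basket cell class, and is also transcribed in pyramidal cells. It had 238, 233.5, 209.0 and 254.7 CPM in aged WT, 154 to 249 (median 219) in vehicle-treated APP and 135 to 209.8 (median 183) in JQ1-treated APP samples. All 6 JQ1-treated samples were below both vehicle medians, although the ranges overlapped. Cck had the next largest negative difference after Sst between JQ1-treated APP and aged WT, -0.43 (SE 0.14, 95% interval -0.74 to -0.13, adjusted p = 0.144 by edgeR, exact permutation p = 0.0238). It was -0.50 without the library labelled APP JQ1 replicate 4 (adjusted p = 0.0629 by edgeR). Against vehicle-treated APP it was -0.26 (SE 0.13, adjusted p = 0.319 by edgeR). Over 10 other settings, apart from leaving out 1 sample, the difference to vehicle-treated APP ran from -0.32 to -0.04. In young mice JQ1 and vehicle differed by 0.07 (95% interval -0.10 to 0.23). None of 10 CA1 pyramidal markers was called between JQ1-treated APP and aged WT mice. All 10 had lower means with JQ1 (median -0.17), against 49.9% of all genes, while their sums overlapped, with 6375 to 9580 and 7785 to 10100 CPM, and their part in the Cck values was not tested.

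Lhx6 encodes the transcription factor of interneurons born in the medial ganglionic eminence, which include the Pvalb and Sst cells. It had 20.5, 26.9, 23.1 and 24.6 CPM in aged WT, 21.4 to 26.5 (median 24.8) in vehicle-treated APP and 19.2 to 23.7 (median 22.8) in JQ1-treated APP samples. All groups overlapped. The difference between JQ1 and vehicle was -0.13 in APP mice (95% interval -0.32 to 0.05, adjusted p = 0.461 by edgeR), with all 6 JQ1-treated samples below the vehicle median, and -0.04 in young mice (95% interval -0.16 to 0.08). With the GC and length correction the former was 0.05.

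Whether markers varied together among samples of a group was examined for 8 pairs of genes in each experiment, as correlations of deviations from group means, with permutation tests and Benjamini-Hochberg adjustment over the 16 tests. In young mice Sst and Npy, which are often made by the same cells, correlated with r = 0.77 (rho = 0.55, permutation p = 0.00132, adjusted p = 0.0211, 16 samples). Without the 2 samples farthest from the median of Sst, r was 0.48 (adjusted p = 0.267), so the call depended on those samples. The decarboxylases Gad1 and Gad2 correlated with r = 0.70 in young mice (rho = 0.65, permutation p = 0.00375, adjusted p = 0.03), and 0.65 without the 2 farthest samples (adjusted p = 0.0882). For both pairs the adjusted permutation p of rho was 0.115, which did not pass. In aged mice the same pairs had r of 0.43 (adjusted p = 0.207) and 0.67 (rho = 0.60, adjusted p = 0.103). Pvalb and Lhx6, which share a lineage, had r = -0.50 in aged (adjusted p = 0.207) and 0.17 in young mice (adjusted p = 0.622). Gad1 and Slc32a1, both general GABA genes, had r = -0.57 in young mice (permutation p = 0.0266, adjusted p = 0.106). In aged mice their r was 0.35 (adjusted p = 0.378 by permutation).

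Among the 3 genes most like Sst over the 16 aged samples, by correlation of deviations from group means over 11925 genes, was Hyal2 (r = 0.84), which had r of 0.73 with Sst in the young samples. Such genes were found by ranking all genes, and are given as a description. For Gad1 the first was Ppm1a (0.86, young 0.60), for Slc32a1 Wdr4 (0.90, young 0.73), for Cck Enho (0.93, young 0.61) and for Pvalb Klhdc2 (0.96, young 0.14).

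Genes around the markers were read from fixed lists. Of 41 other interneuron genes 40 were tested in aged samples, and none was called between JQ1 and vehicle in APP mice (median -0.02) or in young mice. Between vehicle-treated APP and aged WT mice 2 of the 40 were called higher and 0 lower, where 2.57% of all genes were called. Between JQ1-treated APP and aged WT mice 2 were called higher and 1 lower, where 2.06% of all genes were called. Igf1, a growth factor of some interneurons that microglia also make, rose in vehicle-treated APP against aged WT mice. Igf1 was 8.69 to 10.6 CPM in aged WT and 13.3 to 28.1 in vehicle-treated APP samples (1.19, adjusted p = 0.00828 by edgeR). It also rose in JQ1-treated APP mice (1.24, adjusted p = 0.00999 by edgeR), where 8 of 11 microglia markers rose too, as they did with vehicle, and the part of microglia in these values was not tested. Cplx1, a complexin of the release machinery, fell in JQ1-treated APP against aged WT mice by 0.35 (adjusted p = 0.0364 by edgeR), from 752 to 813 CPM in aged WT to 574 to 657. This was -0.20 when scaled to pan-neuronal genes (adjusted p = 0.197 by edgeR), and -0.35 without the 3 libraries that stand apart (adjusted p = 0.185 by edgeR).

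Of 11 inhibitory synapse genes tested, 1 was called between vehicle-treated APP and aged WT mice, where 2.57% of all genes were, and 0 in the other comparisons of aged mice. Slitrk3, an adhesion molecule of inhibitory synapses, fell by 0.43 in vehicle-treated APP against aged WT mice (adjusted p = 0.0414 by edgeR). It had 67.9 to 96.4 CPM in vehicle-treated APP against 101 to 109 in aged WT samples, and without the 3 libraries that stand apart the value was -0.44 (adjusted p = 0.246 by edgeR), and scaled to pan-neuronal genes -0.24 (adjusted p = 0.29 by edgeR). In JQ1-treated APP mice all 11 had lower means than in aged WT, with a median of -0.17, and 0 were called. None of 13 genes of GABA metabolism and transport was called in any comparison of the aged samples, such as Glul, the glutamine synthetase (0.20 between JQ1 and vehicle in APP mice), and Slc12a5, the chloride exporter KCC2 (-0.17). In the difference between the JQ1 effects of APP and young mice, all 12 of these genes tested had values above 0, with a median of 0.23 against 0.008 over all genes, and 0 were called. No call was made among 12 neuropeptide receptors, not all of them specific to the 4 marker peptides, such as Adcyap1r1 (-0.03) and Sstr4 (0.18), a somatostatin receptor. The same held for 7 perineuronal net genes, the matrix around Pvalb cells, such as Bcan (-0.30) and Hapln4 (-0.36). Pan-neuronal genes had a median of -0.14 in vehicle-treated and -0.16 in JQ1-treated APP against aged WT mice (0 of 12 called), close to the medians of the 10 markers.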

How the data were processed

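CA1 RNA was sequenced by the authors on a HiSeq2000 and, per the labels, base calls were made with CASAVA 1.8.2. The deposited counts are whole reads per gene, which the authors obtained by alignment to mm10 with STAR and counting with htseq. Reads that fell on no gene (15.4% to 26.9% per aged sample) were left out. Strand handling is not given in the sources used here. The deposited FPKM of the young samples were made by the authors with cufflinks/cuffdiff and are scaled to transcript length and depth. Samples were grouped from the labels. Counts were matched to symbols by Ensembl ID (GENCODE release 21 of the mouse), normalized with TMM, filtered with filterByExpr (16962 genes kept) and tested with edgeR 4.0.16 in 1 fit of the 3 aged groups. FPKM of at least 0.5 in at least 8 samples (18420 loci) were tested with limma 3.58.1 on log2(FPKM + 0.1), a scale that understates changes of low genes. The difference between the JQ1 effects was fitted in limma on log2(CPM + 0.1) and log2(FPKM + 0.1) together. R 4.3.3, DESeq2 1.42.0, Python 3.11.15 and scipy 1.17.1 were used.

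The markers, the gene lists and the tests were chosen with earlier results of these data known. Named genes were all markers, of each list the genes called or else the 2 of highest level, and for each marker the 3 genes most like it, of which part is printed. Some genes that this rule selects are not reported here. Each fit was tested on simulated data, on which the joint fit of both experiments made more false calls than its threshold, so a fit in which each experiment had its own variance was added. Alternatives were DESeq2, RLE size factors, other filters and pseudocounts, scaling to pan-neuronal genes, the GC and length correction, the replicate number as a block, and leaving out each sample. DESeq2, RLE size factors and the GC and length correction were applied to the aged comparisons only. The own-variance fit and the loss of 3 libraries together were chosen after the data were seen.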

Additional observations from a re-analysis of the deposited data

Results flagged for a closer look

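In young JQ1-treated mice, Pvalb of replicate 8 had 63.8 FPKM and the next highest sample 50.3, a gap of 0.676 of the range of the group. Without this sample the difference to vehicle was -0.22 in place of -0.17. In vehicle-treated APP mice, Npy of replicate 1 had 196.9 CPM and the next highest sample 65.0, a gap of 0.909 of the range. These 2 samples were the ones that lay far from the others among 50 groups of samples examined, a test that chance passes in about 1 of 20 groups. The JQ1 effect on Sst differed between APP and young WT mice by -0.464 on the log2 scale (adjusted p = 0.0454 by limma). This call was lost with separate variances (adjusted p = 0.0596 by limma) and in 22 of 28 fits with 1 sample left out. No cause was weighed for these results.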

How the results depend on the processing

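Of 1350 marker differences recomputed under other settings, 1260 kept their direction and their side of the threshold, 33 lost and 1 gained a call, and 56 changed sign, all of the latter uncalled. For JQ1-treated APP against aged WT mice, the count of markers called went from 1 to 0 when scaled to pan-neuronal genes, with the replicate block, and with the replicate block and GC correction together (Sst -0.35, -0.44 and -0.49, adjusted p = 0.174, 0.166 and 0.0961 by edgeR). The difference between the JQ1 effects went from 1 to 0 with separate variances. Leaving out 1 sample at a time, the counts ranged from 0 to 1 for JQ1 against vehicle in APP mice, for JQ1-treated APP against aged WT and for the difference between effects, and stayed at 0 for the other comparisons. For Sst, these ranged from -0.61 to -0.39 against aged WT and from -0.52 to -0.42 for the difference between effects, with calls lost in 7 of 16 and 22 of 28 fits. Whether the replicate numbers pair samples was not settled. Between the APP groups the correlation of same-numbered deviations ran from -0.107 to 0.342, with a mean of 0.124 against -0.0207 for differently numbered samples. In young mice the means were 0.0264 and -0.00374. With aged WT they were ordered the other way, -0.0495 and 0.0198 for vehicle-treated APP and -0.215 and 0.0499 for JQ1-treated APP. The block changed no other marker call.

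For JQ1 against vehicle in APP mice, signs changed for Pvalb (-0.0087 with block and GC, -0.077 without 3 libraries), Vip (-0.18 with GC, -0.19 with block and GC), Gad1 (-0.025 pan-neuronal, -0.0030 with GC, -0.0045 with block and GC, -0.066 without 3 libraries), Gad2 (-0.059 with GC, -0.060 with block and GC, -0.0030 without 3 libraries), Slc32a1 (0.056 and 0.062 with GC and with block and GC) and Lhx6 (0.052 and 0.053). For vehicle-treated APP against aged WT they changed for Gad2 (0.10 pan-neuronal), Slc32a1 (0.15 pan-neuronal, 0.016 with the block), Cck (0.0030 pan-neuronal) and Lhx6 (-0.15 with GC, -0.16 with block and GC, -0.089 without 3 libraries). For JQ1-treated APP against aged WT they changed with pan-neuronal scaling for Vip (0.051), Npy (0.12), Gad2 (0.12) and Lhx6 (0.042).

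Leaving out 1 sample gave ranges across 0 for Pvalb (-0.071 to 0.15), Npy (-0.48 to 0.086) and Gad1 (-0.061 to 0.066) between JQ1 and vehicle in APP mice, and for Npy (-0.12 to 0.43), Slc32a1 (-0.075 to 0.046) and Lhx6 (-0.048 to 0.087) between vehicle-treated APP and aged WT. The same held for Vip (-0.21 to 0.0066), Npy (-0.16 to 0.027) and Gad2 (-0.10 to 0.017) between JQ1-treated APP and aged WT, for Vip (-0.00034 to 0.11) and Calb2 (-0.011 to 0.14) in young mice, and for Vip (-0.057 to 0.15), Npy (-0.38 to 0.0039) and Gad1 (-0.026 to 0.096) in the difference between effects. Among correlations, signs changed without the 2 farthest samples for Sst with Lhx6 (-0.13) and Pvalb with Sst (0.33) in aged and Vip with Cck (0.19) in young mice, and with pan-neuronal scaling for Vip with Cck (-0.14) in aged and Pvalb with Lhx6 (-0.12) in young mice. Causes were not tested.

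Counts over all genes moved more. The 184, 436 and 349 calls of the aged comparisons were 749, 804 and 790 by DESeq2, 42, 620 and 599 with pan-neuronal scaling, 87, 35 and 21 with the block, 35, 478 and 566 with GC correction, 28, 30 and 41 with both, and 95, 253 and 286 without 3 libraries. With GC correction the higher and lower calls were 31 and 4, 374 and 104, and 342 and 224, against 105 and 79, 422 and 14, and 327 and 22. Leaving out 1 sample gave 65 to 446, 154 to 601, 11 to 651, 0 to 2 in young mice, and 94 to 432 for the difference between effects (236 with all samples, 108 with separate variances, 93 with pan-neuronal scaling, 389 with the block). The depth of the aged samples did not limit the markers, whose lowest count was 194, and in young mice the depth is unknown.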
